A study of Mus musculus with 24 samples.

Results

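The DEAD and DEAH box helicases are enzymes that use ATP to unwind or remodel RNA, and they are named after a run of amino acids, DEAD or DEAH, in the site that binds ATP. Members act at nearly every step in the life of an RNA, from transcription, splicing and ribosome assembly to nuclear export, translation, storage and decay. Ddx4 (Vasa) is the member known for germ granules, and in the round spermatid, the haploid cell after meiosis, messages made early are stored for later translation. The other members of the family were followed here in testis germ cells of mice with a knock-in allele of Ddx4. Genes were taken whose symbol is Ddx or Dhx followed by a digit, except Ddx4 and the Y-linked Ddx3y, and whose mean level reached a TPM of 1 (a level scaled for transcript length and library size) in round spermatid or in CB RNA. Of 52 symbols of this form, 51 were members, 35 named Ddx and 16 named Dhx. They stand among 21770 genes at the same level, of 55401 listed. In round spermatids 48 members reached 1 TPM and in CB RNA all 51 did. Nearest above the minimum, by the higher of their mean levels in the 2 kinds of RNA, were Ddx60 (0.243 TPM in spermatids and 1.76 in CB RNA) and Ddx55 (1.08 and 3.56). The single symbol left out was the antisense gene Dhx58os, with a mean of 0.0133 TPM in spermatids and 0.4 TPM in CB RNA.

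Round spermatid RNA was sequenced from wild-type testes and from testes with a DDX4 heterozygous or DDX4 homozygous knock-in (n = 2 libraries each). CB RNA, an abbreviation that the labels leave unexplained and whose cell type they give as germ cells, was sequenced from the heterozygous and the homozygous knock-in (n = 3 each), with no wild-type counterpart analysed here. For each of the 3 genotypes there were also small RNA libraries of pachytene spermatocytes (n = 2) and of round spermatids (n = 2). The spermatids and spermatocytes came from enriched fractions of digested testes. Neither the age or strain of the mice nor the content of the knocked-in allele is given in the labels. Nothing in them ties the libraries of a group to different animals, and a p-value here therefore measures only library-to-library spread, which may be technical.

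Spermatid libraries totalled 15.3 to 24.9 M counts and CB libraries 14.2 to 16.5 M. Counts scaled to the TMM library size (CPM) are given below for every library, and changes were tested with edgeR's quasi-likelihood test, with Benjamini-Hochberg adjustment over all genes and a threshold of 0.05. Ddx4 itself stood at 443 and 521 CPM in wild-type spermatids, 406 and 403 in heterozygous and 121 and 129 in homozygous ones, while in CB RNA it was 277, 312 and 365 CPM in heterozygous and 303, 307 and 244 in homozygous libraries. Wild-type spermatid library 1 stood apart, with 31.2% of its counts on genes with an effective length under 1000 bases against 22.1% to 24.5% in the other spermatid libraries. Among the CB libraries heterozygous library 1 differed most from the others of its group. The spermatid markers summed to 40860 to 69810 TPM in the spermatid libraries, against 169 to 201 TPM for spermatocyte markers. In the CB libraries they summed to 4801 to 8642 TPM, and spermatocyte markers to 316 to 506 TPM. Spermatid libraries carried more Leydig cell marker RNA in homozygotes (52.6 to 53.8 summed TPM, against 14.3 to 15.8 in wild type and 26 to 28.5 in heterozygotes) and more immune marker RNA (37.4 to 38.5, against 14.7 to 16.4 and 24.7 to 30.3), with 1 of 4 and 2 of 7 tested markers past the threshold against wild type. Sertoli cell markers were lower (21.8 to 24.1, against 36.4 to 40.5 in wild type, 2 of 6 past the threshold). Peritubular markers summed to 203 to 204 TPM against 272 to 345 (2 of 5 higher and 1 lower), and spermatogonial markers to 68.8 to 115 against 51.6 to 58.5 (0 of 7 called). In CB RNA the spermatid markers were lower in homozygotes (4801 to 5319 against 5913 to 8642 summed TPM, 3 of 8 past the threshold), as were peritubular markers (56.5 to 65.5 against 86.6 to 94.9, 1 of 5). Leydig markers summed to 508 to 562 TPM against 188 to 386 (0 of 5 called) and immune markers to 13.6 to 23.1 against 5.55 to 13.3 (1 of 6 called, higher). No listed marker was at 0 in any group. These shifts move with genotype, and their part in the helicase results was not tested. In such bulk samples fewer cells of a type and less RNA per cell cannot be told apart.

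Ddx5 was the most abundant helicase in both kinds of RNA. Its mean level was 811 TPM in round spermatids and 1130 TPM in CB RNA, 35.1% and 29.1% of the summed TPM of all members. In spermatids the next were Ddx20 (269 TPM), a partner of the SMN complex that assembles spliceosomal particles, Dhx30 (125 TPM), which serves mitochondrial ribosomes, Ddx25 (124 TPM), a germ cell helicase needed to complete sperm formation, and Ddx24 (86 TPM), a nucleolar helicase. In CB RNA Ddx5 was followed by Dhx30 (227 TPM), Ddx20 (212 TPM), the splicing helicase Ddx46 (176 TPM) and Ddx17 (174 TPM), the close paralogue of Ddx5. Ddx6, which represses and stores messages in the cytoplasm, stood at 2.95 TPM in spermatid RNA and at 105 TPM in CB RNA, the widest gap of any member, a ratio of 35.8. Next by ratio were Dhx9 (4.3 and 69 TPM), Dhx57 (0.657 and 9.49 TPM), Ddx11 (4.41 and 56.4 TPM) and Ddx17 (18.7 and 174 TPM). Ddx25 showed the opposite order, with 124 TPM in spermatids and 54.7 TPM in CB RNA, a ratio of 0.439, and Ddx49, Ddx56 and Ddx20 also had ratios under 1 (0.628, 0.673 and 0.787). Of the 48 members at 1 TPM or more in spermatids, 42 (87.5%) had a higher mean TPM in CB RNA, with a median ratio of 2.24, beside 54.7% and 1.16 over all 14981 genes at that level. Kit and input differed between the kinds of library (1 ug of total RNA against 25 ng of CB RNA, the latter made into strand-specific libraries without polyA selection or ribosomal RNA removal), so these levels are set side by side and not tested.

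**Figure D1:**
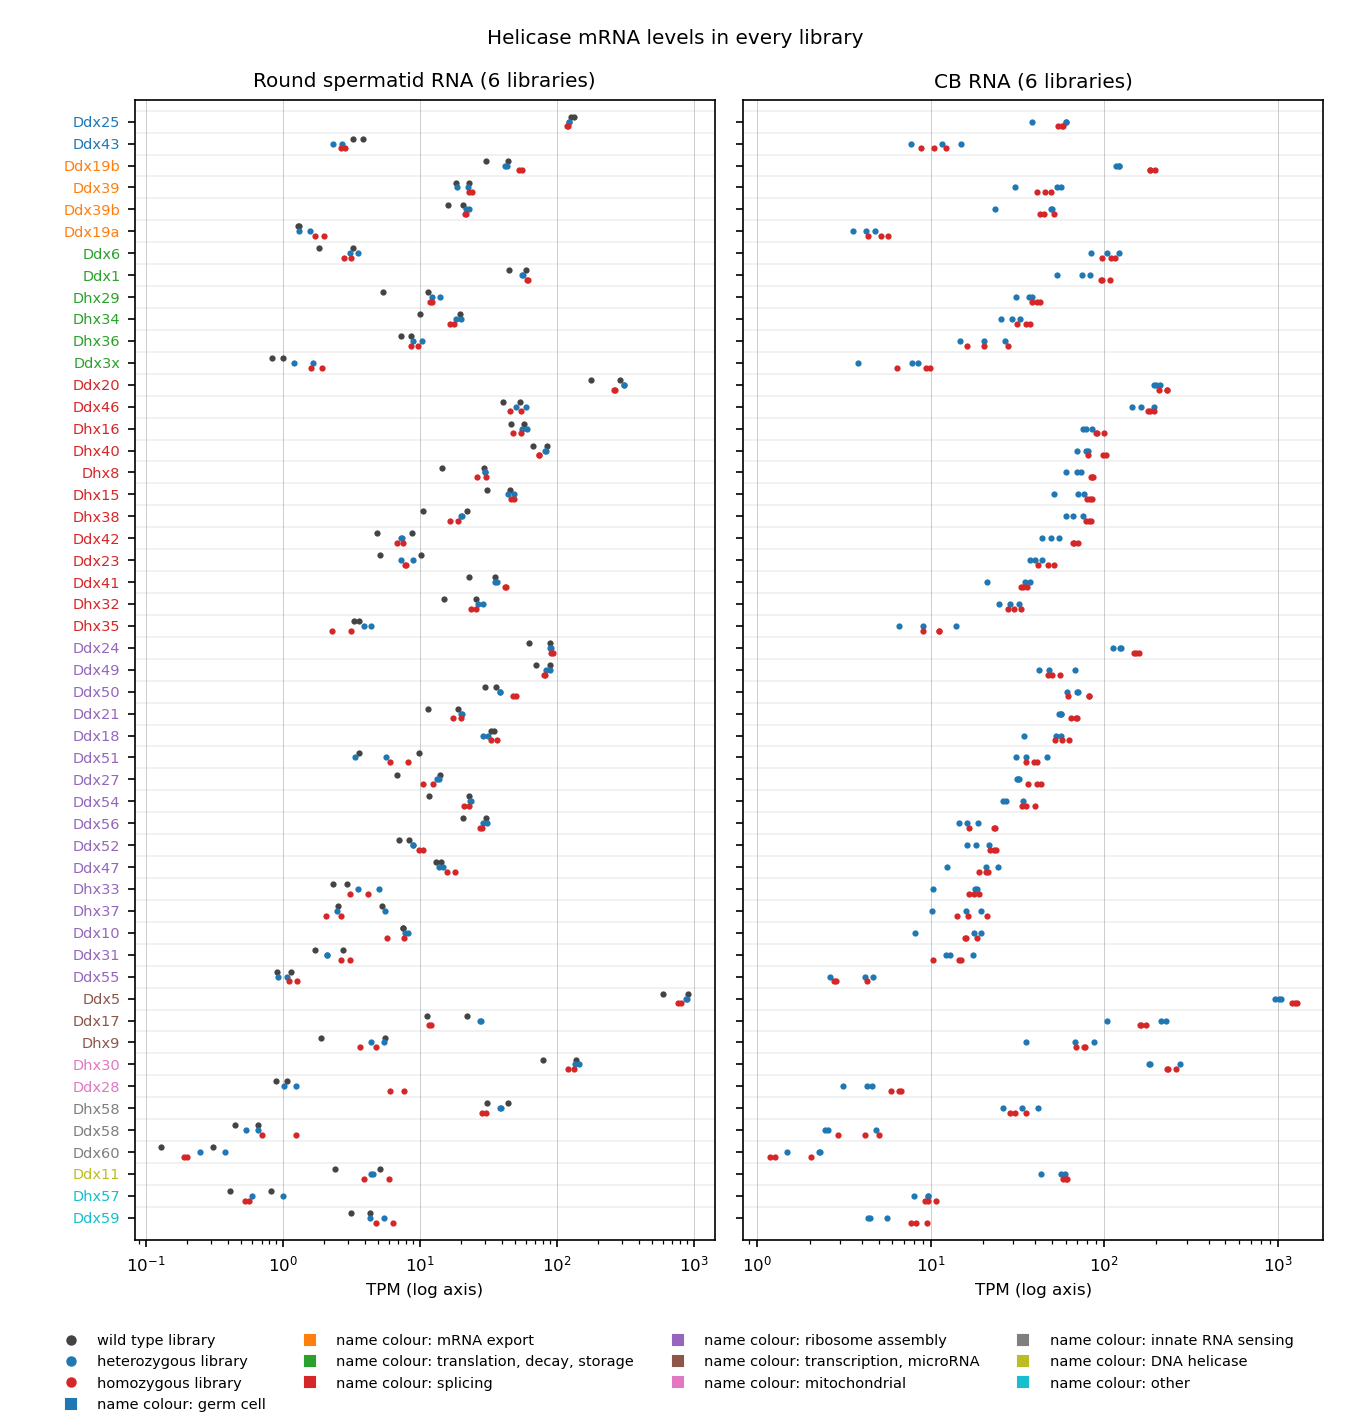
Level of each of the 51 helicases (rows, names coloured by role) in every library of round spermatid RNA (left) and CB RNA (right), on log axes of TPM; points are libraries, coloured by genotype. Ddx5 is at the right in both panels, Ddx28 stands apart in the 2 homozygous spermatid libraries, and Ddx6, Dhx9 and Ddx11 stand far lower in the left panel than in the right one, whose axes differ in range.

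Summed over the 51 helicases, round spermatids held 1726 and 2515 TPM in wild type, 2520 and 2462 in heterozygotes and 2273 and 2362 in homozygotes. The low value is wild-type library 1, and without it the homozygous libraries lie below the others. In CB RNA the sum was 3286, 3747 and 3665 TPM in heterozygotes and 4203, 4190 and 4230 TPM in homozygotes, with no overlap. TPM depends on the whole mix of RNA in a library, and in TMM-scaled CPM, on which the tests rest, the CB genotypes of Ddx5, the largest part of the sum, overlapped.

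All 51 helicases passed the low-count filter and entered every comparison. In round spermatids, homozygous against wild type, 1 helicase passed the threshold, Ddx28, which rose, beside 2.86% of the 17809 genes tested (2.39% higher). The homozygous against heterozygous comparison also called Ddx28 alone, with 1.73% of genes called (1.36% higher). No helicase was called between heterozygotes and wild type, where edgeR called 0% of genes. At an unadjusted p under 0.05 that comparison held 2 helicases and 7.28% of genes, and DESeq2 called 5 genes in it. In CB RNA 1 helicase rose, Ddx19b, with 1.72% of 19335 genes called (1.16% higher). At an unadjusted p under 0.05 stood 10 helicases for homozygotes against wild type, 8 against heterozygotes and 6 in CB RNA, beside 22.7%, 16.7% and 14.5% of all genes, so the share of the helicases lies just under that of all genes. Median changes of the 51 were 0.09, -0.05 and 0.10 on the log2 scale in these 3 comparisons, beside medians of -0.000581, -0.000731 and -0.00479 over all genes. Leaving out wild-type library 1 turned the median against wild type to -0.06, and leaving out library 2 of that group raised it to 0.26, so its sign depends on which of them is used. In CB RNA 38 of the 51 had a positive log2 change and 13 a negative one, beside 9530 positive and 9805 negative of all 19335 genes. Of the 51 helicases, 10 did not overlap between the genotypes there, all 10 higher in homozygotes, beside 11.5% of genes not overlapping upward and 9.78% downward. In spermatids 13 helicases lay above and 9 below wild type in homozygotes without overlap (26.7% and 25% of genes), 13 above and 9 below wild type in heterozygotes (22.5% and 22.1%), and 14 above and 19 below heterozygotes in homozygotes (32.6% and 32%). With 2 libraries a group such separation is thus common among all genes, which bears on each statement below that groups do not overlap.

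**Figure D2:**
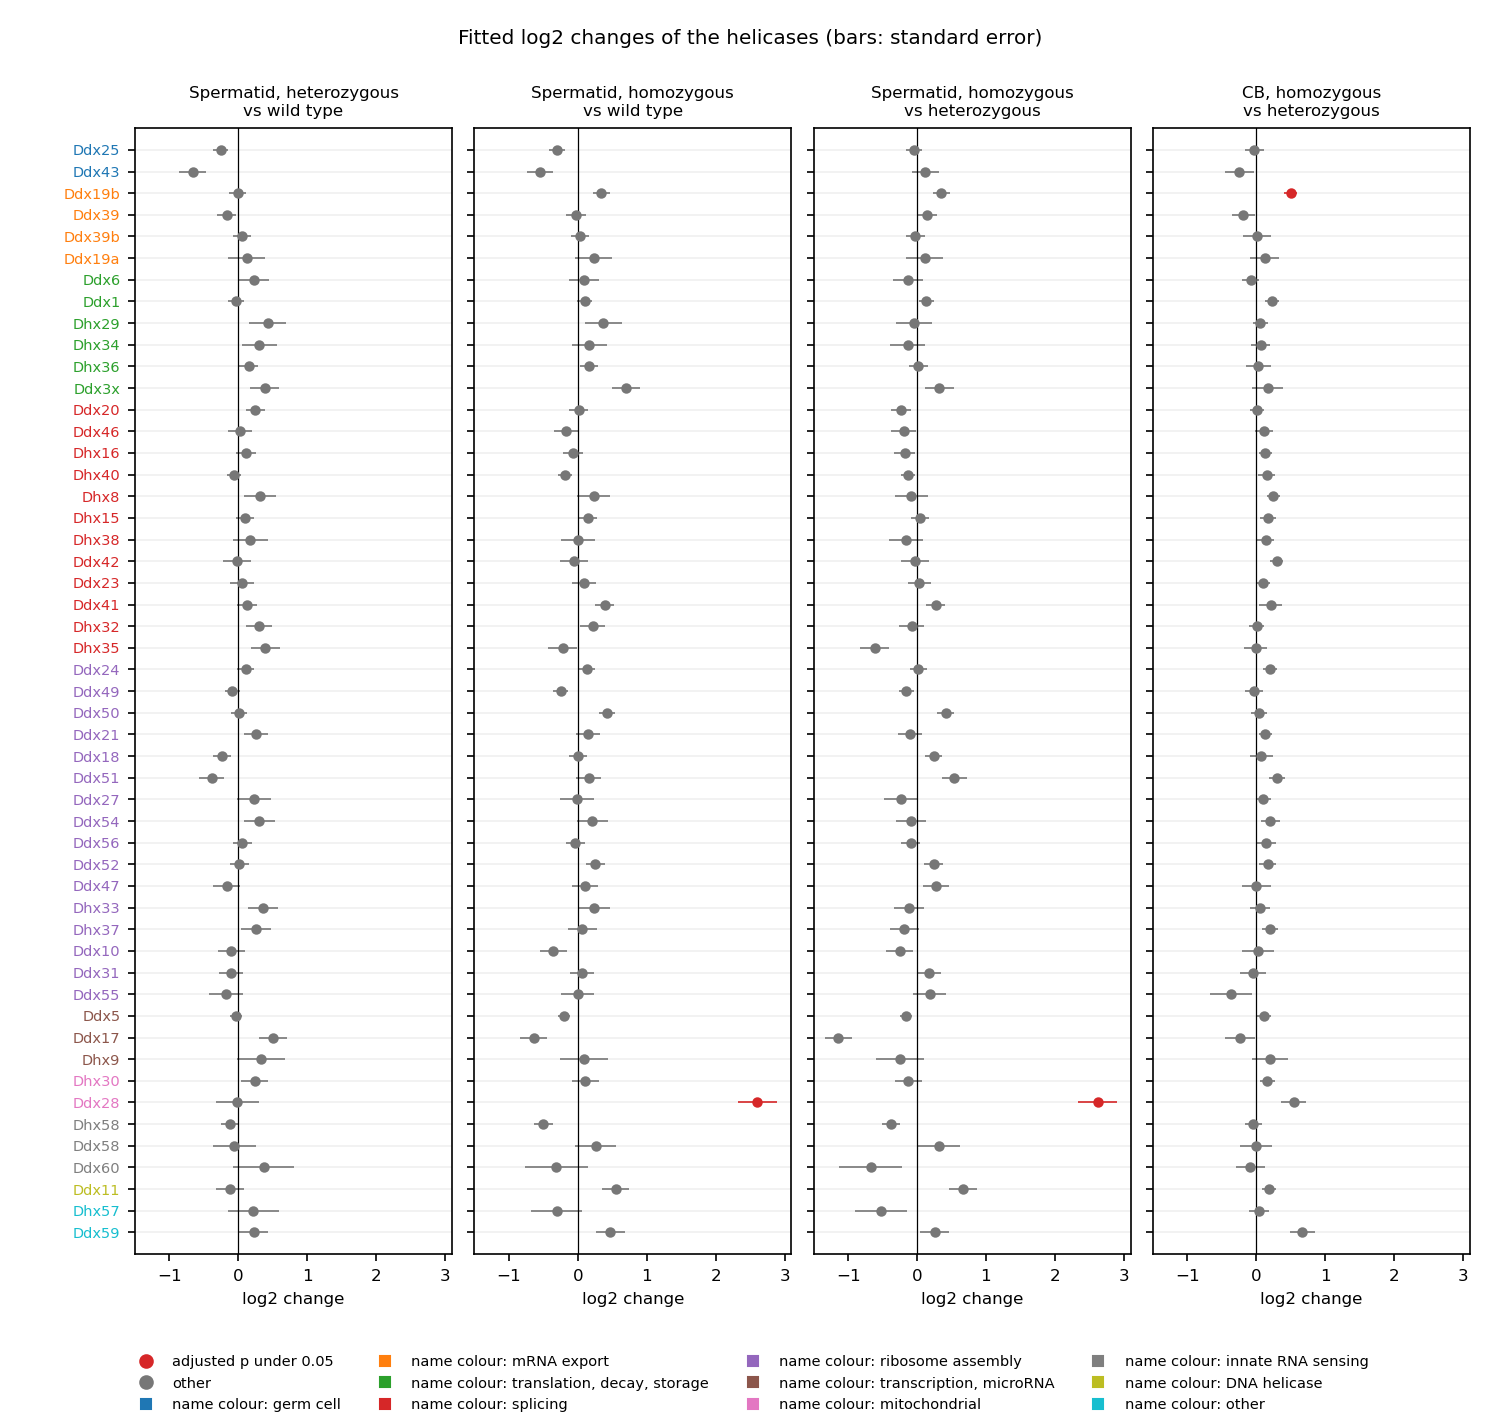
Fitted log2 change of each of the 51 helicases (rows, names coloured by role) in 4 comparisons (panels), with bars of 1 standard error; red points have an adjusted p under 0.05. Red are Ddx28 in both homozygous spermatid comparisons (2.61 and 2.62) and Ddx19b in CB RNA (0.50), and the lowest point is Ddx17 in homozygous against heterozygous spermatids (-1.14).

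Ddx28, a mitochondrial helicase that takes part in assembly of the mitochondrial ribosome, rose several-fold in homozygous round spermatids. The gene (ENSMUSG00000045538) lies on chromosome 8 from 106009616 to 106011486 in GRCm38.p6. It was at 2.23 and 1.48 CPM in wild-type libraries, 1.63 and 2.03 CPM in heterozygous ones and 12.6 and 9.8 CPM in homozygous ones, from 41, 36, 31, 31, 246 and 187 counts. Both homozygous libraries lie far above the other 4, which overlap each other. The means were 1.86 ± 0.533, 1.83 ± 0.283 and 11.2 ± 2.01 CPM (SD, n = 2 each). The log2 change was 2.61 (SE 0.28, edgeR adjusted p = 0.0143) against wild type, a 6.09-fold difference, and 2.62 (SE 0.29, edgeR adjusted p = 0.0225) against heterozygotes, and it was -0.01 for heterozygotes against wild type. In CB RNA Ddx28 was at 3.44, 4.59 and 4.2 CPM in heterozygotes and 6.13, 6.24 and 5.47 CPM in homozygotes. These groups do not overlap either, but the log2 change of 0.54 (SE 0.18, edgeR adjusted p = 0.199) did not pass. The homozygous effect was smaller in CB RNA than in spermatids, with a difference of -2.02 on the log2 scale (edgeR adjusted p = 0.0311, 0.209% of 22002 genes called, 0.145% lower). Of the 51 members Ddx28 alone was called in that test, with 3 members and 8.9% of genes at an unadjusted p under 0.05. Ddx4, which is not among the members, was also called (log2 difference 1.59, edgeR adjusted p = 0.0122). Kit, input and cells differ between the kinds of RNA and cannot be told apart from these differences.

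Over 12 alternatives the Ddx28 change ran from 2.34 to 2.91 against wild type and from 2.42 to 2.79 against heterozygotes, and it was called in 7 of 12 in either comparison. The adjusted p against wild type was 0.0725 and 0.0741 without heterozygous library 1 or 2, 0.192 and 0.16 without homozygous library 1 or 2, and 0.0758 when the 4 compared libraries were fitted alone. Against heterozygotes it was 0.341, 0.351, 0.297 and 0.281 without heterozygous library 1 or 2 or homozygous library 1 or 2. With 1 spermatid library left out its group holds a single library, which is assumed to vary like the others. The difference between CB and spermatid RNA was called in 8 of 18 alternatives (-2.22 to -1.82). Its adjusted p was 0.198 and 0.186 without heterozygous spermatid library 1 or 2, 0.244 and 0.0898 without homozygous spermatid library 1 or 2, 0.0973 and 0.0901 without heterozygous CB library 2 or 3, and 0.115, 0.0719 and 0.102 without homozygous CB library 1, 2 or 3.

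Ddx28 lies head to head with Dus2, which encodes an enzyme that modifies transfer RNA. The RefSeq start sites are at 106011486 for Ddx28 on the minus strand and at 106011478 for Dus2 on the plus strand, and the label for the spermatid kit names no strand, so reads from the few bases where the genes overlap cannot be told apart there. Dus2 was at 10.9 and 13.4 CPM in wild-type, 10.8 and 13.2 in heterozygous and 14.1 and 13.4 in homozygous spermatids, with a log2 change of 0.17 against wild type (edgeR adjusted p = 0.614). In CB RNA Dus2 was at 6.95, 8.07 and 5.05 CPM in heterozygotes and 7.28, 7.06 and 6.32 CPM in homozygotes. The neighbour thus did not pass the test where Ddx28 rose. The first bases of Ddx28 are shown because they hold a palindrome close to both start sites. The stretch lies inside Ddx28, just downstream of its start, and upstream of Dus2. It is 30 bases of RefSeq sequence on the minus strand, chr8:106011446-106011475 in GRCm38.p6, with the palindrome TGACGTCA, the full cyclic AMP response element, in capitals.
Ddx28: ggtggcgtgctTGACGTCAttagcgcgcgc
The nearest base of the palindrome lies 22 bases downstream of the Ddx28 start and 14 bases upstream of that of Dus2. It reads the same on both strands and was found in 6 of 56 promoter windows of the helicases (10.7%, in 5 genes, Ddx28, Ddx51, Ddx19a, Ddx49 and Dhx36), against 588 of all 32851 windows (1.79%). The windows run from 250 bases before to 50 after a start, and 45 of the 51 helicases had one. The motif was chosen after the Ddx28 sequence was seen, and a match is only a description of these letters.

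Dhx30, the other member with a mitochondrial role, was not called in any comparison with every library in the fit. It was at 267 and 403 CPM in wild-type, 402 and 387 in heterozygous and 349 and 373 in homozygous spermatids, with a log2 change of 0.11 against wild type (edgeR adjusted p = 0.768). The wild-type libraries span the others, and the homozygous ones lie below the heterozygous ones. In a fit of the compared libraries alone Dhx30 was called against heterozygotes (log2 -0.13, edgeR adjusted p = 0.0422), beside 32.3% of genes.

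Ddx19b was the helicase called in CB RNA. It belongs to the export group, where its yeast counterpart Dbp5 releases messages from their carriers at the cytoplasmic face of the nuclear pore. The gene (ENSMUSG00000033658) lies on chromosome 8 from 111003186 to 111031751, on the minus strand. CB libraries held 308, 282 and 290 CPM in heterozygotes (293 ± 13, SD, n = 3) and 414, 405 and 425 CPM in homozygotes (415 ± 10.2, SD, n = 3). Each homozygous library lies above each heterozygous one. The log2 change was 0.50 (SE 0.10, edgeR adjusted p = 0.0309). Spermatids showed the same order, with 106 and 122 CPM in wild type, 111 and 116 in heterozygotes and 142 and 147 in homozygotes. The homozygous spermatid libraries lie above all the others, while wild type and heterozygotes overlap. There the log2 changes of 0.34 against wild type (edgeR adjusted p = 0.183) and 0.35 against heterozygotes (edgeR adjusted p = 0.226) did not pass. The difference between the CB and spermatid effects was 0.20 (edgeR adjusted p = 0.753). In CB RNA the call was kept in 4 of 11 alternatives, with log2 changes of 0.42 to 0.52. It was lost without heterozygous library 2 or 3 (0.127 and 0.117), without homozygous library 1, 2 or 3 (0.206, 0.156 and 0.165) and with the trend over gene length removed (0.0783). Without heterozygous library 1 its adjusted p was 0.000451.

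The stretch before the upstream start site of Ddx19b, at 111031751, is shown because a piRNA cluster named for the gene begins there (a second RefSeq start lies at 111027770). It is RefSeq sequence of the minus strand, chr8:111031752-111032001 in GRCm38.p6, with CCAAT, on either strand, in capitals.
Ddx19b: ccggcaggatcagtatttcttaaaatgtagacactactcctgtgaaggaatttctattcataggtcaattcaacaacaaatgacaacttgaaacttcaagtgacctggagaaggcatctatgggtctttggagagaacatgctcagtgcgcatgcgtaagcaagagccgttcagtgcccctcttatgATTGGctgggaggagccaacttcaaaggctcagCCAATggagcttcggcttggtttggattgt
CCAAT, which is read as ATTGG on the other strand, occurs 2 times in this stretch. It was found in 25 of 56 promoter windows of the helicases (44.6%) and in 12289 of all 32851 windows (37.4%). This motif, too, was chosen after the sequence was seen.

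The files divide Ddx19b between 2 transcripts, and the kinds of RNA differed in which was the larger. The longer (ENSMUST00000040241, 6612 bases) took 11.2% to 15% of the gene in the 6 spermatid libraries and 53.5% to 58.4% in the 6 CB libraries. The shorter (ENSMUST00000065784, 3104 bases) took 85% to 88.8% and 41.6% to 46.5%. The shares overlap between genotypes of CB RNA, where both transcripts had higher levels in homozygotes. The longer was at 67.4 ± 3.06 TPM in heterozygotes and 105 ± 2.12 TPM in homozygotes, and the shorter at 52.8 ± 2.74 and 82.5 ± 7.42 TPM (SD, n = 3 each). These are the authors' estimates, from kits that differ between the kinds of RNA, and were not tested.

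The small RNA files name a cluster after Ddx19b, a hybrid-class piRNA cluster on chromosome 8 from 111003186 to 111031723 in mm10 that covers nearly the whole gene. PIWI-interacting RNAs (piRNAs) are short germline RNAs cut from long cluster transcripts. In pachytene spermatocytes the Ddx19b cluster took 0.23% and 0.221% of cluster reads in wild type, 0.129% and 0.133% in heterozygotes and 0.266% and 0.242% in homozygotes, so that the heterozygous libraries were the low ones. In round spermatids it took 0.118% and 0.107% in wild type, 0.193% and 0.168% in heterozygotes and 0.21% and 0.177% in homozygotes, so that the wild-type libraries were the low ones. Most of the 214 clusters passed the threshold in every comparison, and a call is therefore no mark of this cluster. The heterozygous against wild-type log2 change was -0.38 in spermatocytes (SE 0.10, edgeR adjusted p = 0.00601, 80.4% of clusters called) and 0.34 in spermatids (SE 0.10, edgeR adjusted p = 0.0112, 77.1% called). The difference between these effects, 0.72 (SE 0.15, edgeR adjusted p = 0.000821, 89.7% of clusters called), was called in 15 of 15 alternatives. The homozygous against wild-type change was 0.33 in spermatids (edgeR adjusted p = 0.0116, 86.9% called). In spermatocytes it was 0.30 (edgeR adjusted p = 0.025, 68.2% called), which was called in 5 of 15 alternatives, and turned to -0.03 with DESeq2 size factors. The median change over all clusters depends on how the libraries are scaled, so the changes are given relative to that median as well. Against wild type they were 0.01 for homozygous and -0.53 for heterozygous spermatocytes, and 0.46 for homozygous and 0.25 for heterozygous spermatids. Homozygous exceeded heterozygous spermatocytes by 0.68 (edgeR adjusted p = 0.00011, 84.1% called), called in 15 of 15. In spermatids homozygotes and heterozygotes differed by -0.02 (edgeR adjusted p = 0.904, 72.4% called). The difference between the cell types was 0.03 for homozygotes against wild type (edgeR adjusted p = 0.865, 79.9% called). The spermatid values against wild type lost their call without homozygous spermatid library 1 (adjusted p = 0.102) or heterozygous spermatid library 1 (0.0971). Depth was lowest in the homozygous spermatid small RNA libraries (11.7 and 9.23 M reads on clusters, where the other spermatid libraries had 21.7 to 24.1 M).

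**Figure D3:**
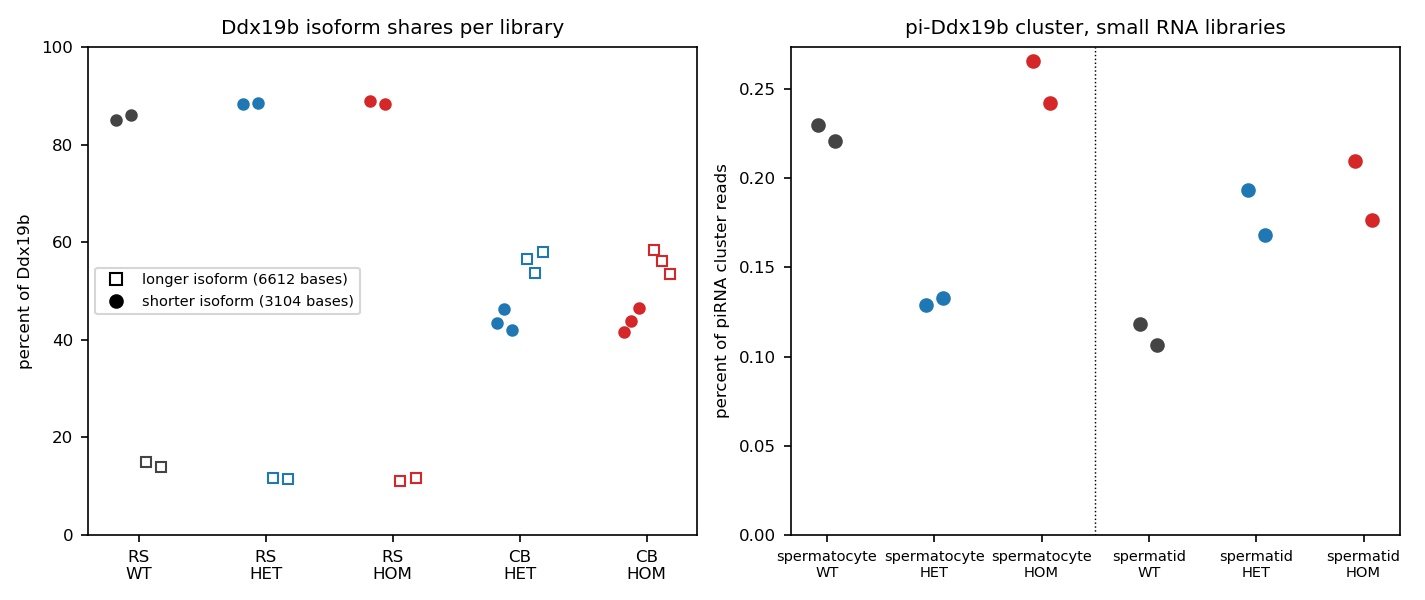
Left, share of Ddx19b taken by the longer (open squares) and shorter (filled circles) transcript in each RNA library (y axis, percent of the gene). Right, share of piRNA cluster reads on the Ddx19b cluster in each small RNA library (y axis, percent); heterozygous spermatocytes and wild-type spermatids are the low groups.

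The rest of the export group showed no call outside the alternatives. Ddx39b, a subunit of the TREX complex that loads export factors on messages, was at 24.6 and 25.5 CPM in wild-type, 25.7 and 26.5 in heterozygous and 26.1 and 25.3 in homozygous spermatids. Its paralogue Ddx39 (Ddx39a) was at 27.6 and 27.3, 22.6 and 26.1, and 26.8 and 27.2 CPM. Ddx19a, the paralogue of Ddx19b, was at 2.29 and 2.3, 2.58 and 2.42, and 2.26 and 3.15 CPM. Their spermatid groups overlap or lie close together. In CB RNA their log2 changes were 0.01, -0.19 and 0.12. As with Ddx19b, the transcript mix of Ddx39b and Ddx5 differed between the kinds of RNA. The main Ddx39b transcript (ENSMUST00000068056, 1739 bases) took 83.3% to 94.8% of the gene in spermatids and 34.4% to 45.7% in CB RNA. For Ddx5 a transcript of 3559 bases (ENSMUST00000021062) took 44.8% to 56.9% and 18.2% to 25.7%, and a short one of 861 bases (ENSMUST00000129585) took 37.2% to 49.2% and 56.3% to 63.1%. Paralogues such as Ddx39 and Ddx39b, Ddx19a and Ddx19b, or Ddx5 and Ddx17 share sequence, and the sources used here do not say how reads were divided between them.

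Ddx17, a helicase that with Ddx5 serves transcription, splicing and microRNA processing, had the largest negative change. The gene (ENSMUSG00000055065) lies on chromosome 15 from 79527696 to 79546764. Spermatid libraries held 47.8 and 70.8 CPM in wild type, 83.8 and 84 CPM in heterozygotes and 39 and 37.2 CPM in homozygotes. The homozygous libraries are the lowest and the heterozygous ones the highest, with wild type between. The log2 change was -1.14 (SE 0.20, edgeR adjusted p = 0.0577) against heterozygotes and -0.64 (edgeR adjusted p = 0.145) against wild type, neither past the threshold. Against heterozygotes it passed in 6 of 12 alternatives, among them DESeq2 (adjusted p = 0.000224), no low-count filter (0.00153), removal of the length trend (0.00201) and a fit of the compared libraries alone (5.71e-09). In CB RNA Ddx17 was at 197, 384 and 397 CPM in heterozygotes and 286, 267 and 279 CPM in homozygotes, where heterozygous library 1 is the low one and the groups overlap. The log2 change was -0.23 (edgeR adjusted p = 0.695), and without that library it was -0.50 (edgeR adjusted p = 0.000592). The paralogue Ddx5 was at 1370 and 1430 CPM in wild-type, 1355 and 1374 in heterozygous and 1214 and 1221 in homozygous spermatids. Its homozygous libraries lie below the other 4, and the log2 change against wild type was -0.20 (edgeR adjusted p = 0.225). In CB RNA Ddx5 was at 752, 697 and 759 CPM in heterozygotes and 822, 802 and 757 CPM in homozygotes, with overlap. Dhx9, a nuclear helicase that unwinds double-stranded RNA, was at 8.23 and 17.3, 17.5 and 14.7, and 12.2 and 15.1 CPM in wild-type, heterozygous and homozygous spermatids. Here wild-type library 1 is the low one. Outside the alternatives, edgeR called none of these 3 members in spermatids or CB RNA. With the length trend removed, Ddx17 and Ddx5 were called against wild type (edgeR adjusted p = 0.00253 and 0.032), beside 14.1% of genes.

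**Figure D4:**
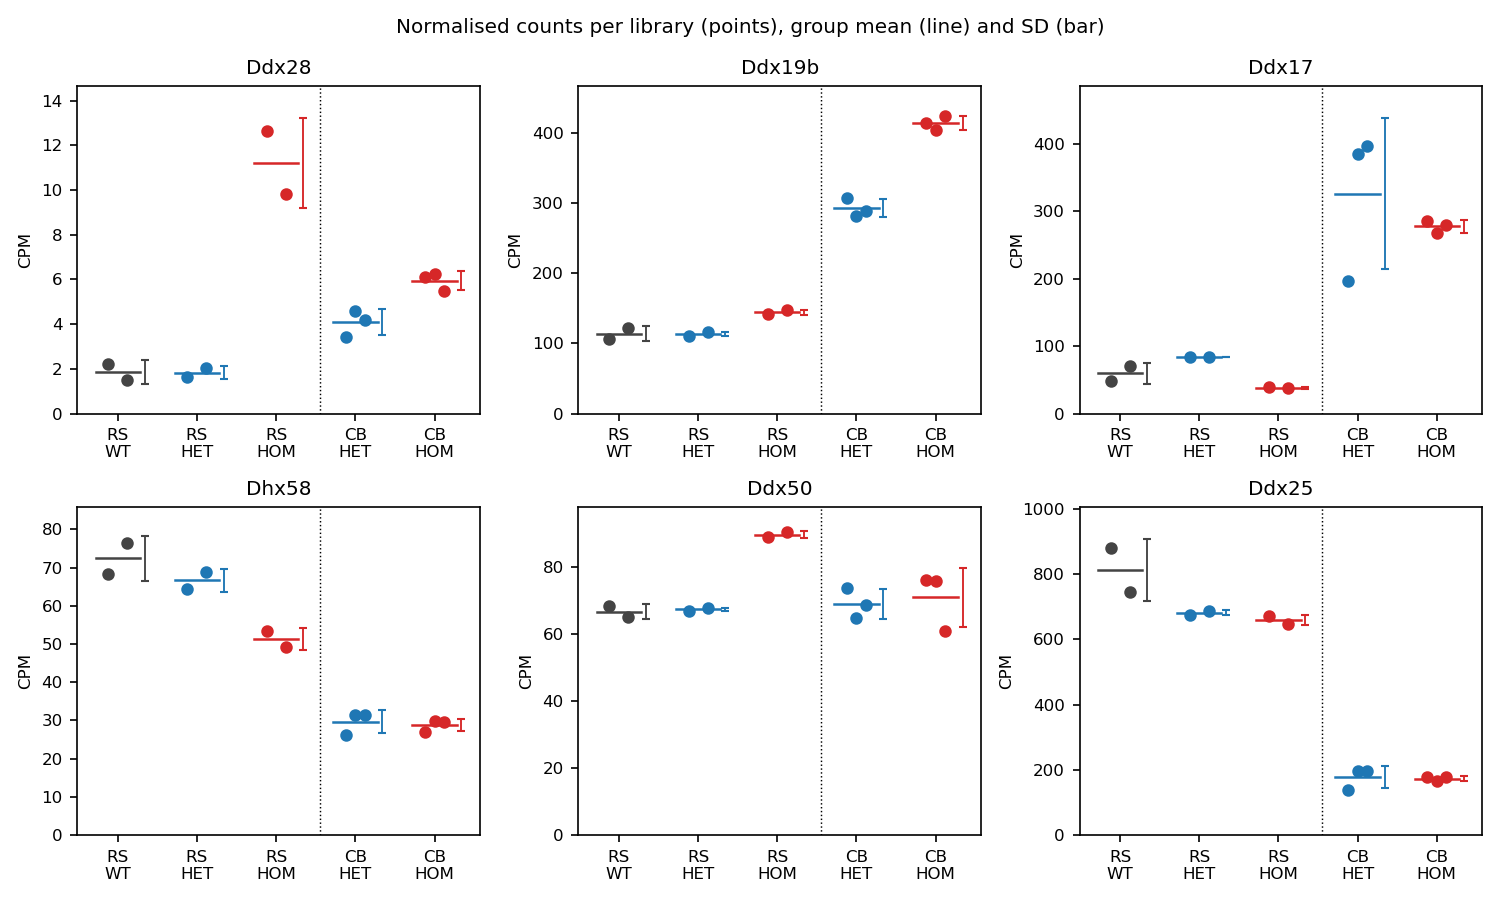
Normalised counts (y axis, CPM, from 0) of 6 helicases in each RNA library, with a panel for each gene; points are libraries, lines group means and bars the SD (n = 2 in spermatids, 3 in CB RNA). Homozygous spermatid libraries stand apart from the others for Ddx28 (9.8 and 12.6 CPM) and lowest for Ddx17 (37.2 and 39 CPM), and the CB genotypes separate for Ddx19b.

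The germ cell helicases were lower in both knock-in genotypes but did not pass the test. Ddx25 (GRTH) was at 881 and 747 CPM in wild-type, 676 and 687 in heterozygous and 671 and 648 in homozygous spermatids. Both wild-type libraries lie above the other 4, and the log2 changes were -0.26 for heterozygotes and -0.30 for homozygotes (edgeR adjusted p = 0.519 and 0.192). Ddx43 (HAGE), a helicase of male germ cells, was at 6.54 and 6.17, 4.26 and 3.73, and 4.57 and 4.14 CPM. It likewise had no overlap between wild type and knock-ins, with log2 changes of -0.67 and -0.54 (edgeR adjusted p = 0.519 and 0.171). In CB RNA Ddx25 was at 138, 198 and 195 CPM in heterozygotes and 177, 165 and 178 CPM in homozygotes, and Ddx43 at 8.24, 11.2 and 14.3 and at 11, 9.46 and 7.9 CPM. Both overlap there.

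Of the 12 splicing helicases none was called in any comparison outside the alternatives. With the length trend removed, Ddx46 was called in homozygous against wild-type spermatids (edgeR adjusted p = 0.019), beside 14.1% of genes. Their log2 changes in homozygous against wild-type spermatids ran from -0.22 to 0.39, 7 of them positive. In CB RNA 11 of 12 were positive, with a median of 0.13, beside 38 of the 51 helicases and 9530 of 19335 genes positive. Ddx20 was at 488 and 636 CPM in wild-type, 664 and 669 in heterozygous and 567 and 569 in homozygous spermatids. Again wild-type library 1 was the low one, and the homozygous libraries lay below the heterozygous ones. Dhx35, a component of the spliceosome, was at 7.36 and 8.22, 9.57 and 10.9, and 5.7 and 7.7 CPM, with a log2 change of -0.61 against heterozygotes (edgeR adjusted p = 0.218). Ddx46, which acts when the branch site is first recognised, was at 461, 340 and 353 CPM in heterozygous and 428, 411 and 410 CPM in homozygous CB RNA, with overlap through heterozygous library 1.

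The 16 helicases of ribosome assembly, which act on precursor ribosomal RNA in the nucleolus, also held no call outside the alternatives. Their medians were 0.09 for homozygous against wild-type spermatids, -0.03 against heterozygotes and 0.09 in CB RNA. Ddx50, a nucleolar paralogue of Ddx21, was at 68.3 and 65.3 CPM in wild-type, 67.1 and 67.8 in heterozygous and 89.1 and 90.6 in homozygous spermatids. The homozygous libraries stand clear of the other 4, but the log2 change of 0.43 (edgeR adjusted p = 0.112) against wild type and 0.41 (edgeR adjusted p = 0.152) against heterozygotes did not pass. In a fit of the compared libraries alone the latter passed (edgeR adjusted p = 6.74e-05), beside 32.3% of genes. In CB RNA Ddx50 was at 73.8, 64.9 and 68.7 CPM in heterozygotes and 76.2, 75.9 and 61 CPM in homozygotes. A pachytene piRNA cluster on chromosome 10 (62651692 to 62701509 in mm10) overlaps one end of the RefSeq span of Ddx50, and it took 1.11% and 1.13% of cluster reads in wild-type, 1.29% and 1.37% in heterozygous and 1.42% and 1.65% in homozygous spermatids, against 1.23% to 1.34% in the 6 spermatocyte libraries. These shares were not tested. Ddx51, needed for the large ribosomal subunit, was at 10.1 and 13, 8.88 and 8.84, and 12.9 and 13 CPM, with the heterozygous libraries low (log2 0.54 for homozygotes against heterozygotes, edgeR adjusted p = 0.206). Ddx55 in CB RNA was at 2.15, 5.5 and 4.97 CPM in heterozygotes and 3.16, 3.22 and 3.4 CPM in homozygotes, and the low library is again heterozygous library 1.

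Helicases of translation, storage and decay had positive log2 changes in homozygous against wild-type spermatids, 6 of 6, from 0.09 to 0.70, and none passed. In that comparison 34 of the 51 helicases and 8898 of 17809 genes were positive. The highest of the 6 was Ddx3x, a helicase of translation initiation and X-linked counterpart of Ddx3y, at 3.82 and 3.7 CPM in wild-type, 5.36 and 4.39 in heterozygous and 6.63 and 5.61 in homozygous libraries. The 3 genotypes do not overlap, and the change was 0.70 (edgeR adjusted p = 0.128). Dhx29, which helps the small ribosomal subunit scan structured leaders, was at 24.3 and 42.8, 43.3 and 46.8, and 43.7 and 43.4 CPM, so that wild-type library 1 alone is low. Ddx6 was at 10.9 and 15.8, 14.6 and 16.8, and 13.5 and 15 CPM in spermatids, and in CB RNA at 261, 296 and 343 CPM in heterozygotes and 290, 302 and 260 CPM in homozygotes. Its groups overlap in both kinds of RNA. Homozygous spermatid libraries lie above wild-type library 1 but below wild-type library 2 for Ddx6. The same holds for Dhx34 in TPM (10.05 and 19.52 in wild type, 16.59 and 17.77 in homozygotes). The count of 6 of 6 thus leans on wild-type library 1.

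Of the 3 helicases that sense viral RNA, Dhx58 (LGP2) had the highest counts. It was at 68.3 and 76.6 CPM in wild-type, 64.5 and 68.8 in heterozygous and 53.3 and 49.2 in homozygous spermatids. The homozygous libraries lie below the other 4, with log2 changes of -0.50 against wild type (edgeR adjusted p = 0.108) and -0.38 against heterozygotes (edgeR adjusted p = 0.229). The immune marker sum was higher in the homozygous libraries, as given above. Ddx58 (RIG-I) and Ddx60 were at 2.52 CPM or less and 1.79 CPM or less in spermatids, and Ddx60 had a log2 change of -0.67 against heterozygotes (edgeR adjusted p = 0.535). Ddx11, a DNA helicase of sister chromatid cohesion, was at 6.59 and 9.13, 7.2 and 7.27, and 11.8 and 11.3 CPM, with the homozygous libraries above the other 4 and a log2 change of 0.55 against wild type (edgeR adjusted p = 0.186). Ddx59 in CB RNA was at 4.66, 3.97 and 5.25 CPM in heterozygotes and 6.73, 7.25 and 8.08 CPM in homozygotes. It had the largest positive change of any helicase there, 0.67 (edgeR adjusted p = 0.101), with no overlap.

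The number of helicases called differed widely when 1 library was left out. Without a wild-type spermatid library that group has 1 library left, and the spread in the fit then comes from the heterozygous and homozygous pairs alone, so these counts carry no check on the spread within wild type. Without wild-type spermatid library 1, 16 helicases passed for homozygotes against wild type (11 lower and 5 higher, beside 26.4% of genes, 13.1% lower and 13.3% higher). Without wild-type library 2 it was 30 (8 lower and 22 higher, beside 45.1% of genes, 20.9% lower and 24.2% higher), and 23 for heterozygotes against wild type (42% of genes). Leaving out wild-type library 1 or 2 also gave 18 for homozygotes against heterozygotes (30.1% and 29.2% of genes), where no wild-type library is compared. A fit of the compared libraries alone gave 18 as well (32.3% of genes). Higher in homozygotes there were Ddx28, Ddx11, Ddx51, Ddx50, Ddx19b, Ddx41, Ddx18 and Ddx1. Lower were Ddx17, Dhx35, Dhx58, Ddx20, Ddx46, Dhx16, Ddx5, Ddx49, Dhx40 and Dhx30. In CB RNA without heterozygous library 1, 9 helicases passed, beside 11% of genes (7.09% higher and 3.96% lower). Ddx59, Ddx19b, Ddx54, Dhx38, Ddx42 and Ddx46 were higher in homozygotes (log2 0.66, 0.52, 0.36, 0.27, 0.26 and 0.26), and Ddx55, Ddx17 and Ddx39 lower (-0.69, -0.50 and -0.38). In these settings the share of all genes called was also much larger than with every library. Helicase transcripts are long, with a median effective length of 2789 bases against 1671 over all genes tested in spermatids. Removing the trend of the log2 change over length gave 6 helicases for homozygous against wild-type spermatids (Ddx28 higher and Ddx17, Dhx58, Ddx46, Ddx49 and Ddx5 lower, beside 14.1% of genes, 7.78% higher and 6.3% lower) and 4 against heterozygotes (Ddx28, Ddx11 and Ddx51 higher and Ddx17 lower, beside 9.89%, 5.95% higher and 3.94% lower).

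Helicases outside the family and known partners were examined beside the 51. Of 25 other RNA helicases listed, such as those of the eIF4A, Upf1 and Mov10 type, 23 were tested in spermatids and 24 in CB RNA. One was called, Ascc3, a helicase that takes apart collided ribosomes and repairs alkylated DNA. It was at 196, 205 and 222 CPM in heterozygous and 348, 338 and 291 CPM in homozygous CB RNA. The log2 change was 0.65 (SE 0.11, edgeR adjusted p = 0.0164), beside 1.72% of genes called there (1.16% higher). In spermatids Ascc3 was at 37.8 and 66.5 CPM in wild type, 75.4 and 79.8 in heterozygotes and 112 and 124 in homozygotes, with a log2 change of 1.18 against wild type (edgeR adjusted p = 0.0749). Of 38 listed partners of the helicases, among them export, exon junction, SMN and storage proteins, 0 were called by edgeR in any comparison. At an unadjusted p under 0.05 stood 8, 6 and 3 for homozygotes against wild type, against heterozygotes and in CB RNA. Of all genes, 22.7%, 16.7% and 14.5% stood there.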

How the data were processed

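Per the file headers, the authors deposited 1 table per RNA library with expected counts (estimates, which may be fractional) and TPM per Ensembl gene, isoform tables with the percent of the gene on each transcript, and whole-number counts of small RNA reads on 214 piRNA clusters. Trim Galore and mm10 are named, without version, in the submitters' processing notes. Quantifier and aligner: not given in the sources used here. Deposited TPM gave the levels and the members. Symbols, positions and promoter sequences are from RefSeq (GRCm38.p6).

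Expected counts were rounded and tested with edgeR 4.0.16 in R 4.3.3 (quasi-likelihood F test, TMM, filterByExpr by group, Benjamini-Hochberg over all genes, threshold 0.05). Separate fits held the 6 spermatid and the 6 CB libraries, all 12 for the difference of effects, and the 12 small RNA libraries. Alternatives were DESeq2 1.42.0, its size factors, no filter, the compared libraries alone, a replicate block, removal of a length trend (loess span 0.3) and leaving out each library. Every pair of libraries of a group differed by more than counting noise (chi-square per degree of freedom 2.47 or more, genes with 20 or more counts). The fitting script was tested on simulated data.

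Named helicases are those called in any comparison, the 5 with the highest TPM in each kind of RNA, the 3 with the largest change in each direction, the germ cell and export groups, and those nearest the TPM minimum. Others were named after their values were seen, for the number of libraries that stood apart or as the paralogue or role partner of a named one. The members and lists were chosen with earlier results of these data known. Intervals for counts were not given, since reads that carry no molecular identifier do not count molecules.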

Additional observations from a re-analysis of the deposited data

Results flagged for a closer look

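The effect of the homozygous against the heterozygous knock-in on Ddx28 differed between CB RNA and round spermatid RNA, by -2.02 on the log2 scale (edgeR adjusted p = 0.0311). Homozygous spermatid libraries held 12.6 and 9.8 CPM against 1.63 and 2.03 CPM in heterozygotes, and homozygous CB libraries 6.13, 6.24 and 5.47 CPM against 3.44, 4.59 and 4.2 CPM. Over 18 alternatives the adjusted p ran from 0.000162 to 0.244, with 8 past the threshold.

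The effect of the heterozygous knock-in on the Ddx19b piRNA cluster differed between round spermatids and pachytene spermatocytes, by 0.72 on the log2 scale (edgeR adjusted p = 0.000821). The cluster took a smaller share of cluster reads in heterozygous than in wild-type spermatocytes and a larger one in heterozygous than in wild-type spermatids, in each of the 2 libraries. Since 89.7% of the 214 clusters were called in this test, the result is not particular to the Ddx19b cluster.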

How the results depend on the processing

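Same-numbered libraries correlated, after removal of group means, by -0.131, 0.115 and -0.024 in spermatid RNA and -0.013, -0.184 and -0.116 in CB RNA. With 2 spermatid libraries a group, their deviations from the mean mirror each other. These values therefore cannot decide whether the replicate numbers pair the libraries, and the fits above do not pair them. With the replicate block, calls numbered 182 genes for spermatid homozygotes against wild type, 12 genes and 0 helicases against heterozygotes, 163 genes and 0 helicases in CB RNA, and 2 genes and 0 helicases for the difference of effects. In the block fit the adjusted p was 0.0611 for Ddx28 against heterozygotes, 0.113 for its difference of effects and 0.141 for Ddx19b in CB RNA.

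For spermatid homozygotes against wild type the 510 genes called became 1692 without the filter, 2508 with the length trend removed, 1287 with DESeq2 and 15 in a fit of the compared libraries alone, and the 1 helicase became 6 with the length trend removed and 0 with the compared libraries alone. For heterozygotes against wild type 0 genes became 6 without the filter and 5 with DESeq2. For homozygotes against heterozygotes 308 genes became 912 without the filter, 1761, 796 and 5577 in these settings, and the 1 helicase became 2 without the filter, 4, 2 and 18. In CB RNA 332 genes became 882 without the filter and 598 with DESeq2, and the 1 helicase became 0 with the length trend removed. For the difference of effects 46 genes became 191, 89, 144 and 269, and the 1 helicase became 2 without the filter. Leaving out each library gave 0 to 8488 genes and 0 to 30 helicases for homozygotes against wild type, 0 to 7901 and 0 to 23 for heterozygotes against wild type, 0 to 5608 and 0 to 18 for homozygotes against heterozygotes, 51 to 2213 and 0 to 9 in CB RNA, and 2 to 188 and 0 to 1 for the difference. The median log2 change of the helicases ran from -0.06 to 0.26 for homozygotes and -0.03 to 0.24 for heterozygotes against wild type with 1 library left out, and the latter moved to -0.10 with the length trend removed. No helicase named for its change reversed under any alternative run, but others did for homozygous against wild-type spermatids. Without wild-type library 1 the log2 changes of Ddx20, Dhx30 and Dhx38 were -0.17, -0.16 and -0.32. Without wild-type library 2 they were 0.23, 0.45 and 0.45. The causes of these shifts were not tested.

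The alternatives for the Ddx19b cluster were chosen after seeing the data. Its homozygous against wild-type change in spermatocytes was -0.0289 with DESeq2 size factors and 0.17 with read totals, and 0.018 to 0.37 with 1 library left out. The spermatid change of homozygotes against heterozygotes was 0.0133 and 0.0946 in these scalings and -0.18 to 0.13 with 1 library left out, positive without spermatocyte homozygous library 1 (0.02), spermatid heterozygous library 1 (0.07) or spermatid homozygous library 2 (0.13). The spermatid minus spermatocyte difference for homozygotes was 0.45 and 0.61 in these scalings and -0.13 to 0.59 with 1 library left out, negative without spermatocyte wild-type library 1 (-0.01), spermatocyte homozygous library 2 (-0.04) or spermatid homozygous library 1 (-0.13). With 1 library left out the other changes kept their sign, heterozygotes against wild type from -0.62 to -0.34 in spermatocytes and 0.26 to 0.65 in spermatids, homozygotes against heterozygotes from 0.60 to 0.74 in spermatocytes, homozygotes against wild type from 0.17 to 0.61 in spermatids, and the heterozygous difference from 0.63 to 1.24. A TPM minimum of 0.5 or 2 gave 51 or 50 helicases.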
